A study of Rattus with 6 samples.

Results

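The genes described here are 10 sensors and adaptors of double-stranded RNA and DNA, named by symbol as Eif2ak2, Ifih1, Rigi, Dhx58, Zbp1, Tlr3, Mavs, Cgas, Adar and Ddx60. Of these, 9 had a row among the 20742 genes of the read table, with Rigi listed there under its older symbol Ddx58. No row carried the symbol Ddx60, which was not analysed here. Enough reads for testing were found for 7 genes, and Tlr3 and Zbp1 were below that level.

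The libraries came from H9C2, a cell line from embryonic rat heart with the character of myoblasts. A plasmid for overexpression of RBM25, an RNA-binding protein that takes part in splice site choice, was carried by the cells of 3 libraries, and a control plasmid by the cells of the other 3. Both groups therefore carried a plasmid, and libraries without one, the way the plasmid was introduced and the time of harvest were not given in the sources used here. The design asked which genes differ in level when RBM25 is overexpressed.

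Cells recognise foreign or misplaced nucleic acid through a small set of proteins. RIG-I (Rigi) and MDA5 (Ifih1) bind double-stranded RNA in the cytosol and signal through MAVS on mitochondria, LGP2 (Dhx58) tunes them, and TLR3 senses such RNA in endosomes. cGAS makes a second messenger when it meets DNA in the cytosol, ZBP1 binds Z-form nucleic acid and engages a cell death pathway, PKR (Eif2ak2) stops translation by phosphorylating the factor eIF2, and ADAR edits adenosine to inosine in double-stranded RNA, which limits its recognition. Many of these genes are themselves induced by interferon in mammals.

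Poly(A) RNA was sequenced, and the libraries held 25543849 to 33130256 counted reads with a biological coefficient of variation between replicates of 3.91%. Rbm25 itself was at 57.4 ± 2.31 CPM (counts scaled to a fixed library size) in RBM25 libraries and 46.5 ± 2.46 CPM in control libraries (SD, n = 3 each; log2 fold change 0.30, edgeR adjusted p = 0.0011). Rbm25 missed the threshold when control replicate 2 was left out (adjusted p = 0.0842 by edgeR) and in the 3 limma-trend fits of the FPKM values (adjusted p = 0.239 to 0.512). Replicate 3 of the RBM25 group stood apart from replicates 1 and 2 of its group, with a chi-square of its counts of 5.88 and 4.55 per degree of freedom, against 3.07 between replicates 1 and 2. Muscle markers were present: Myod1 had 1526 to 2257 reads per library and Casq2 8503 to 11649, while Myh7 had 0 to 2. The summed muscle list was at 600 to 659 CPM in RBM25 libraries and 588 to 606 CPM in control libraries. Fibroblast markers, mostly Col1a1 and Col1a2, summed higher, to 22181 to 23408 CPM in RBM25 libraries and 21954 to 24183 CPM in control libraries. Of that list, Thy1 had 13584 to 17795 reads per library, Pdgfra had 0 to 2, and Dcn and Lum had no row. Epithelial markers, mostly Krt7, summed to 756 to 903 CPM in RBM25 libraries and 779 to 838 CPM in control libraries. Krt8 had 636 to 847 reads per library, while Epcam, Cdh1, Krt18 and Krt19 had 0 to 2. Of 11 leukocyte markers 6 had a row. Ptprc, Adgre1, Itgam and Siglech were among those with none, and Cd4 and Cd74 had 0 to 2 reads per library. The T cell receptor subunit Cd3e was present, with 141 to 188 reads in RBM25 libraries and 142 to 185 reads in control libraries. The macrophage marker Cd68 had 17, 19 and 9 reads in RBM25 replicates 1, 2 and 3, against 7, 8 and 9 reads in control replicates 1, 2 and 3. Its CPM did not overlap between the groups, as in 16.2% of all tested genes, but Cd68 had too few reads to be tested. The ratio of its summed reads was 1.72 (exact 95% interval 1.03 to 2.96). The myeloid markers Csf1r and Lyz2 overlapped between the groups. Csf1r had 31 reads in RBM25 and 29 in control libraries (ratio 0.983, interval 0.573 to 1.69). Lyz2 had 20 reads in RBM25 and 15 in control libraries (ratio 1.23, interval 0.596 to 2.57). The summed leukocyte list was at 5.88 to 7.39 CPM in RBM25 libraries and 6.32 to 6.92 CPM in control libraries. The summed endothelial list, nearly all of it Eng while Pecam1, Cdh5 and Kdr had 0 to 3 reads per library, was at 101 to 103 CPM in RBM25 libraries and 104 to 109 CPM in control libraries, and the part of either list in the results below was not tested. In such bulk RNA, a change in the share of cells that express a gene and a change in RNA per cell cannot be told apart.

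The sensors spanned a wide range of levels, with PKR at the top and the endosomal and Z-nucleic acid sensors near the limit of detection. On the FPKM scale, which divides reads by gene length and depth, Eif2ak2 was at 18.7 ± 1.26 in RBM25 libraries and 15.9 ± 0.312 in control libraries (SD, n = 3 each). In control libraries it was above 82.4% of the genes in the FPKM table. The adaptor Mavs followed with 5.12 ± 0.380 FPKM in RBM25 libraries and 5.26 ± 0.189 FPKM in control libraries, then the editing enzyme Adar with 4.76 ± 0.296 FPKM in RBM25 libraries and 4.47 ± 0.0945 FPKM in control libraries. Rigi had 2.60 ± 0.335 FPKM in RBM25 libraries and 2.27 ± 0.185 FPKM in control libraries, and Cgas had 1.63 ± 0.0306 FPKM in RBM25 libraries and 1.56 ± 0.208 FPKM in control libraries. These upper 5 genes did not overlap with their neighbours in the order among control libraries, whereas Mavs and Adar overlapped among RBM25 libraries.

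The lower part of the order held the other RIG-I-like receptors. Ifih1 was at 0.393 ± 0.0404 FPKM in RBM25 libraries and 0.273 ± 0.0321 FPKM in control libraries. Dhx58 was at 0.21, 0.14 and 0.65 FPKM in RBM25 replicates 1, 2 and 3, against 0.03, 0.04 and 0.05 FPKM in control replicates 1, 2 and 3. Its range overlapped that of Ifih1 among RBM25 libraries and that of Tlr3 among control libraries. Tlr3 was listed at 0.02 to 0.04 FPKM in RBM25 libraries and 0.01 to 0.03 FPKM in control libraries, and Zbp1 at 0.01 to 0.03 FPKM in RBM25 libraries and 0.01 to 0.02 FPKM in control libraries, where rounding to 2 decimals leaves no order between them.

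**Figure D1:**
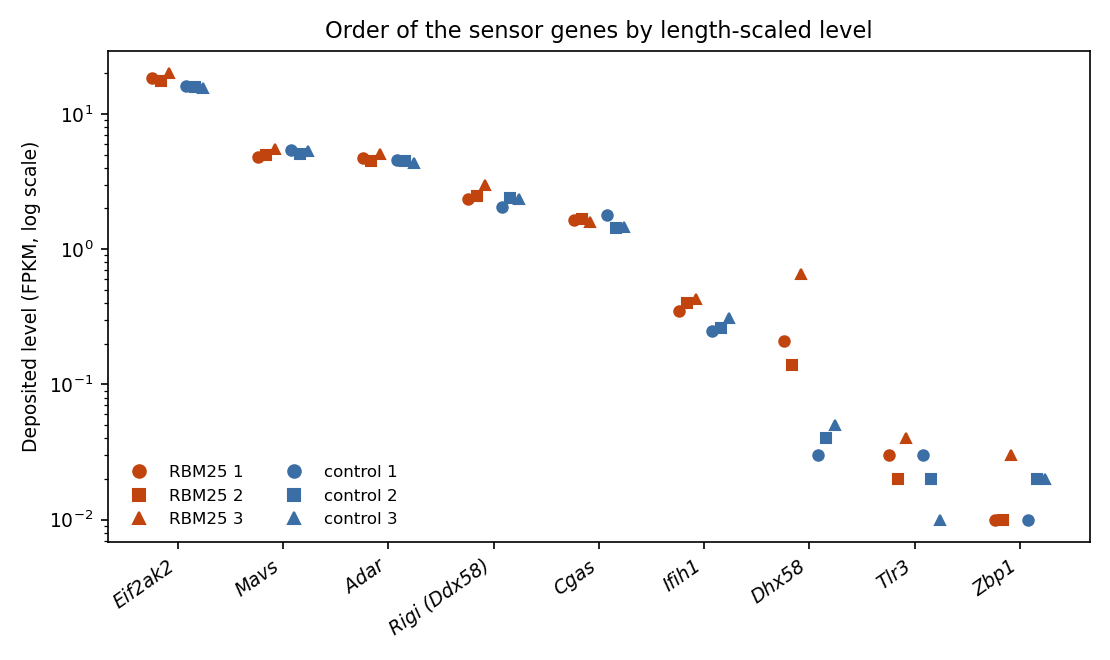
Deposited FPKM (log axis) of the 9 sensor genes with a row, ordered by their mean in control libraries, with 1 point per library and RBM25 libraries left of control libraries. Eif2ak2 lies highest, between 15.6 and 20.1 FPKM, and the Dhx58 points of RBM25 libraries (0.14 to 0.65 FPKM) lie above those of control libraries (0.03 to 0.05 FPKM).

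PKR was the 1 sensor gene that rose past the threshold. Eif2ak2, on chromosome 6, had 77.2, 74.2 and 83.5 CPM in RBM25 replicates 1, 2 and 3, against 68.2, 66.3 and 65.5 CPM in control replicates 1, 2 and 3. Every RBM25 library lay above every control library, with replicate 3 highest, and the gap between the lowest RBM25 library and the highest control library was smaller than the spread within the RBM25 group. The log2 fold change of Eif2ak2 was 0.23 ± 0.042 (SE; edgeR quasi-likelihood test, Benjamini-Hochberg adjusted p = 0.00729), a 1.17-fold difference with a 95% interval of 1.11 to 1.247. An exact two-sided permutation test of its log2 CPM gave p = 0.1, the smallest possible with 3 libraries against 3. Leaving out control replicate 2 or control replicate 3 ended the call (adjusted p = 0.162 and 0.0871 by edgeR) at nearly the same size of change (0.23 and 0.22), as did limma-trend on the FPKM scale (adjusted p = 0.358). Leaving out RBM25 replicate 3 kept it, at 0.18 (adjusted p = 0.00316 by edgeR).

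Over all genes, 0.404% of the 12882 tested were called changed, 0.357% higher and 0.0466% lower. Among the 7 sensor genes tested, 1 was called higher and none lower, and DESeq2 also called none lower. Dhx58 entered the test only through its reads in RBM25 libraries, so the counts that follow leave it out. Of the other 6 genes, 3 had an unadjusted p under 0.05, each of them higher, as for 6.4% of all tested genes. A positive log2 fold change was found for 5 of the 6, against 48.8% of all tested genes. The median log2 fold change over the 6 was 0.14, and that over all tested genes was -0.0021. In 2 of the 6, Eif2ak2 and Ifih1, every RBM25 library was above every control library, as in 8.31% of all tested genes. None lay wholly below, as 7.94% of all tested genes did. The sensor genes were chosen with earlier results of these data known, so these counts are description only.

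**Figure D2:**
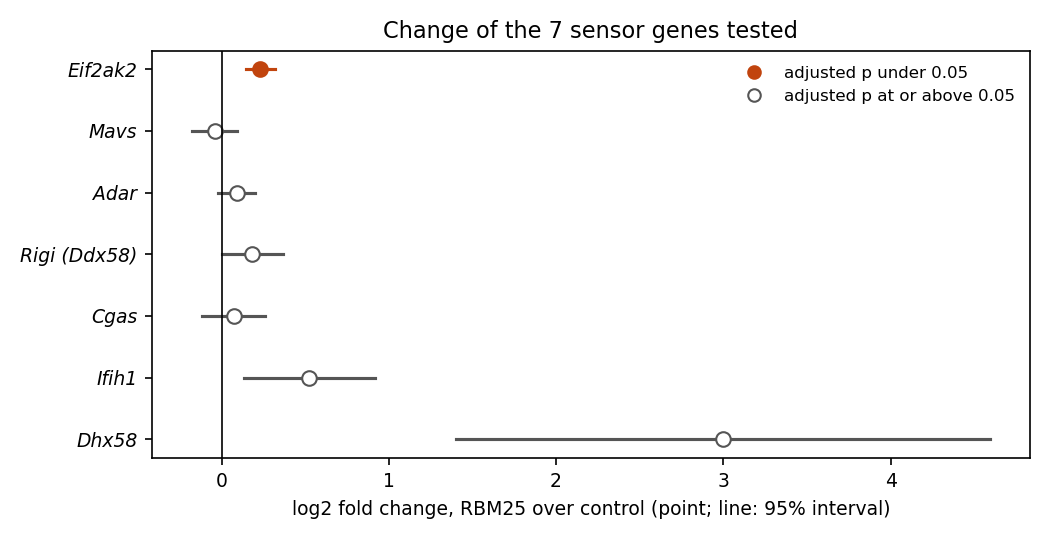
Log2 fold change of RBM25 over control libraries (points) with 95% intervals (lines) for the 7 sensor genes tested by edgeR, ordered by level. The filled point is Eif2ak2 (0.23), the gene with an adjusted p under 0.05, and Dhx58 has the widest interval, from 1.40 to 4.59.

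Among the RIG-I-like receptors, the difference between the groups was widest for Dhx58, on chromosome 10, at the lowest depth. It had 19, 12 and 49 reads in RBM25 replicates 1, 2 and 3, against 2, 3 and 4 reads in control replicates 1, 2 and 3. The groups did not overlap, and replicate 3 held 49 of the 80 reads of the RBM25 group. After scaling to library size, its summed reads stood in a ratio of 8.17 with an exact 95% interval of 4.10 to 18.5, which covers counting error only. Its fitted change of 2.999 ± 0.73 (log2, SE) missed the threshold (edgeR adjusted p = 0.123). That verdict depended on the fit. Dhx58 entered the fits with a filter on low counts only through its RBM25 reads, so their p-values are description only. Dhx58 passed with DESeq2 (log2 fold change 3.09, adjusted p = 0.00575), with edgeR without robust estimation (adjusted p = 0.0396), and when any 1 of the RBM25 libraries was left out (2.14 to 3.37, edgeR adjusted p = 0.00978 to 0.0362). It missed the threshold when any 1 of the control libraries was left out (2.86 to 3.19, edgeR adjusted p = 0.284 to 0.564). Without RBM25 replicate 3 the log2 fold change was 2.14, the lowest of these.

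Ifih1 and Rigi, the receptors that signal through MAVS, had smaller differences that missed the threshold. Ifih1, on chromosome 3, had 65, 71 and 67 reads in RBM25 replicates 1, 2 and 3, against 36, 41 and 53 reads in control replicates 1, 2 and 3. Scaled by library size this was 2.20 ± 0.216 CPM in RBM25 libraries and 1.52 ± 0.169 CPM in control libraries (SD, n = 3 each), with no overlap between the groups. Ifih1 differed by 0.53 ± 0.19 on the log2 scale (SE; adjusted p = 0.269 by edgeR), or 1.44-fold with a 95% interval of 1.10 to 1.89, and none of the 14 alternatives that could be fitted called it (adjusted p = 0.141 to 0.663).

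Rigi, on chromosome 5, had 12.1, 12.6 and 15.1 CPM in RBM25 replicates 1, 2 and 3, against 10.5, 12.2 and 12.1 CPM in control replicates 1, 2 and 3. The groups overlapped, RBM25 replicate 1 lying below control replicate 2. Rigi differed by 0.18 ± 0.089 on the log2 scale (SE; adjusted p = 0.438 by edgeR), with an interval of 1.00 to 1.29 in fold. Without RBM25 replicate 3 it was 0.087 (edgeR adjusted p = 0.713).

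The adaptor below these receptors showed no difference beyond the replicate spread. Mavs, on chromosome 3, had 19.1, 19.7 and 21.6 CPM in RBM25 replicates 1, 2 and 3, against 21.3, 19.9 and 20.9 CPM in control replicates 1, 2 and 3. The highest and the lowest library were both from the RBM25 group. The log2 difference of -0.041 ± 0.066 (SE) was within that spread (adjusted p = 0.866 by edgeR), and the 95% interval of the fold was 0.885 to 1.07.

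**Figure D3:**
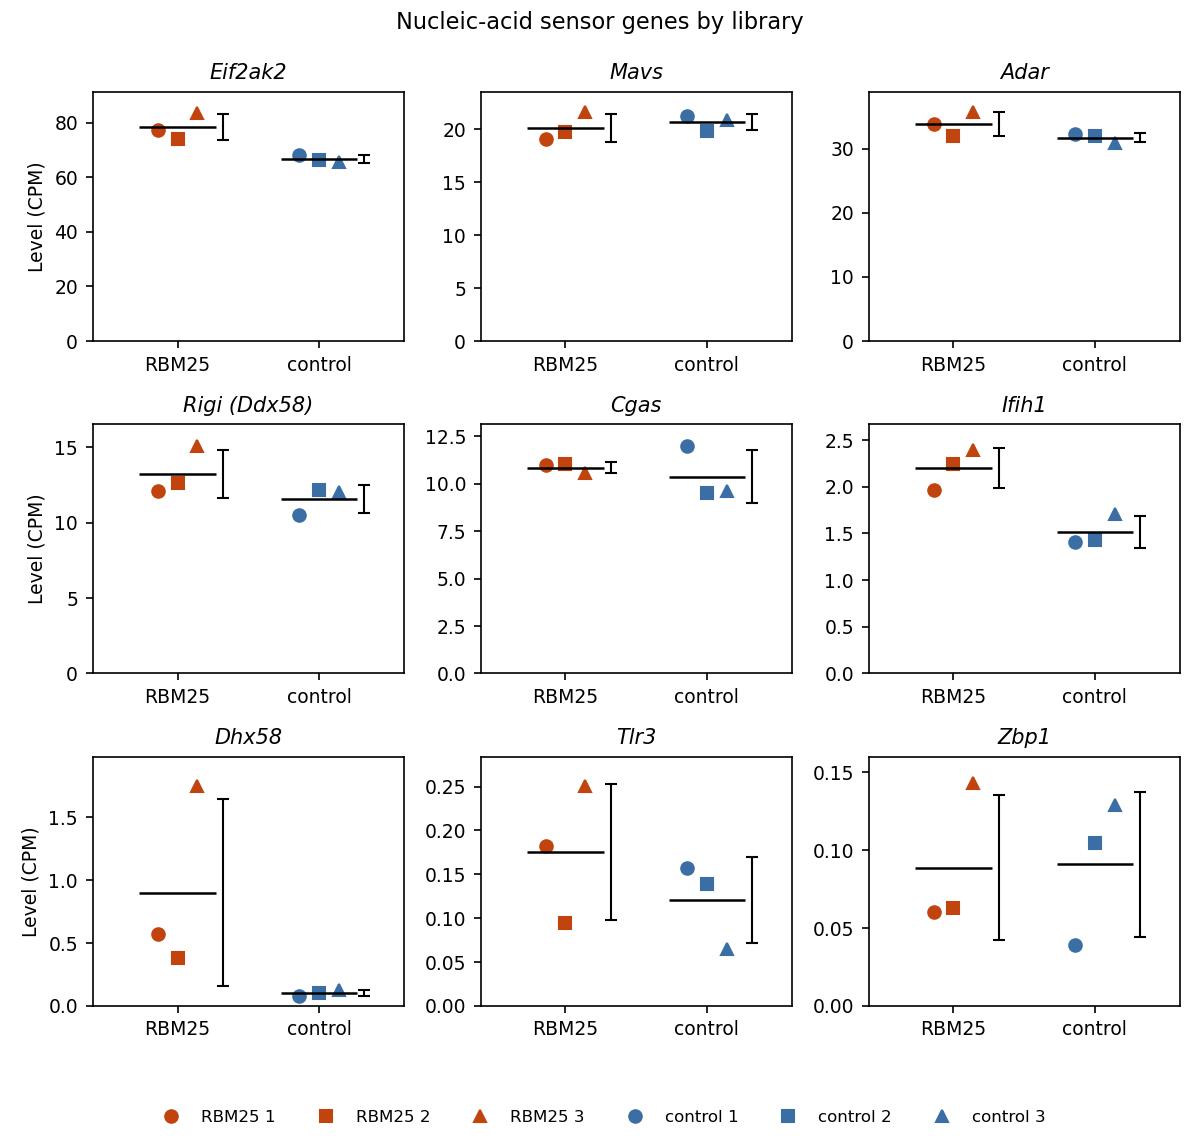
Level in CPM (linear axes from 0) of each sensor gene with a row, 1 point per library, horizontal lines at the group means and error bars of 1 SD (n = 3), with RBM25 libraries left of control libraries. RBM25 replicate 3 (triangles) is the highest of the 6 libraries in each panel except that of Cgas. For Zbp1 and Tlr3 this place rests on few reads. Zbp1 had 4 reads in RBM25 replicate 3 and 4 in control replicate 3, and Tlr3 had 7 in RBM25 replicate 3 and 6 in RBM25 replicate 1.

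The DNA sensor and the editing enzyme were close to their control levels. Cgas, on chromosome 8, had 10.97, 11.05 and 10.5 CPM in RBM25 replicates 1, 2 and 3, against 12.01, 9.50 and 9.63 CPM in control replicates 1, 2 and 3. The RBM25 libraries lay inside the range of the control libraries. The log2 difference was 0.072 ± 0.092 (SE; adjusted p = 0.821 by edgeR; fold 0.923 to 1.198 in the 95% interval). Of the genes that overlap Cgas in the RefSeq table, Ddx43 had a row, with 25 reads in RBM25 libraries and 20 reads in control libraries. Adar, on chromosome 2, had 33.8, 31.9 and 35.7 CPM in RBM25 replicates 1, 2 and 3, against 32.3, 32.03 and 30.9 CPM in control replicates 1, 2 and 3. RBM25 replicate 2 lay inside the control range and the other two above it. The log2 difference was 0.091 ± 0.054 (SE; adjusted p = 0.561 by edgeR), and a fold above 1.15 or below 0.986 lay outside the 95% interval. The interferon-driven and the constitutive forms of ADAR cannot be separated in counts per gene.

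Tlr3 and Zbp1 had too few reads to be tested. Tlr3, on chromosome 16, had 6, 3 and 7 reads in RBM25 replicates 1, 2 and 3, against 4, 4 and 2 reads in control replicates 1, 2 and 3. The ratio of summed reads was 1.47 with an exact 95% interval of 0.627 to 3.63. Zbp1, on chromosome 3, had 2, 2 and 4 reads in RBM25 replicates 1, 2 and 3, against 1, 3 and 4 reads in control replicates 1, 2 and 3, with a ratio of 0.919 (95% interval 0.301 to 2.81). A difference within these intervals was not detectable at this depth.

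The 9 genes together were at 160 ± 9.97 CPM in RBM25 libraries and 143 ± 2.63 CPM in control libraries (SD, n = 3 each), of which Eif2ak2 made up 49.0 ± 0.441% in RBM25 libraries and 46.7 ± 0.174% in control libraries. Without Eif2ak2 the sum was 81.4 ± 5.28 CPM in RBM25 libraries and 76.2 ± 1.32 CPM in control libraries. RBM25 replicate 3 had the highest level of the 6 libraries in 6 of the 7 tested sensor genes, all but Cgas, while it was the highest in 18.9% of all tested genes. The 6 include Dhx58, which entered the test only through RBM25 reads, 49 of 80 of them from replicate 3. The part of RBM25 replicate 3 in the results was not tested beyond leaving it out. Relative to the control mean, Dhx58 differed by 1.92, 1.39 and 3.42 on the log2 scale in RBM25 replicates 1, 2 and 3, Ifih1 by 0.37, 0.55 and 0.64, and Eif2ak2 by 0.21, 0.15 and 0.33. Every RBM25 library was above the control mean in 6 of the 7 tested genes, all but Mavs. That count includes Dhx58, which was tested only through its RBM25 reads. The share over all tested genes was not computed, so the count is description only. The log2 ratio of the group means of the summed level was 0.16 with all libraries and 0.11 without RBM25 replicate 3.

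**Figure D4:**
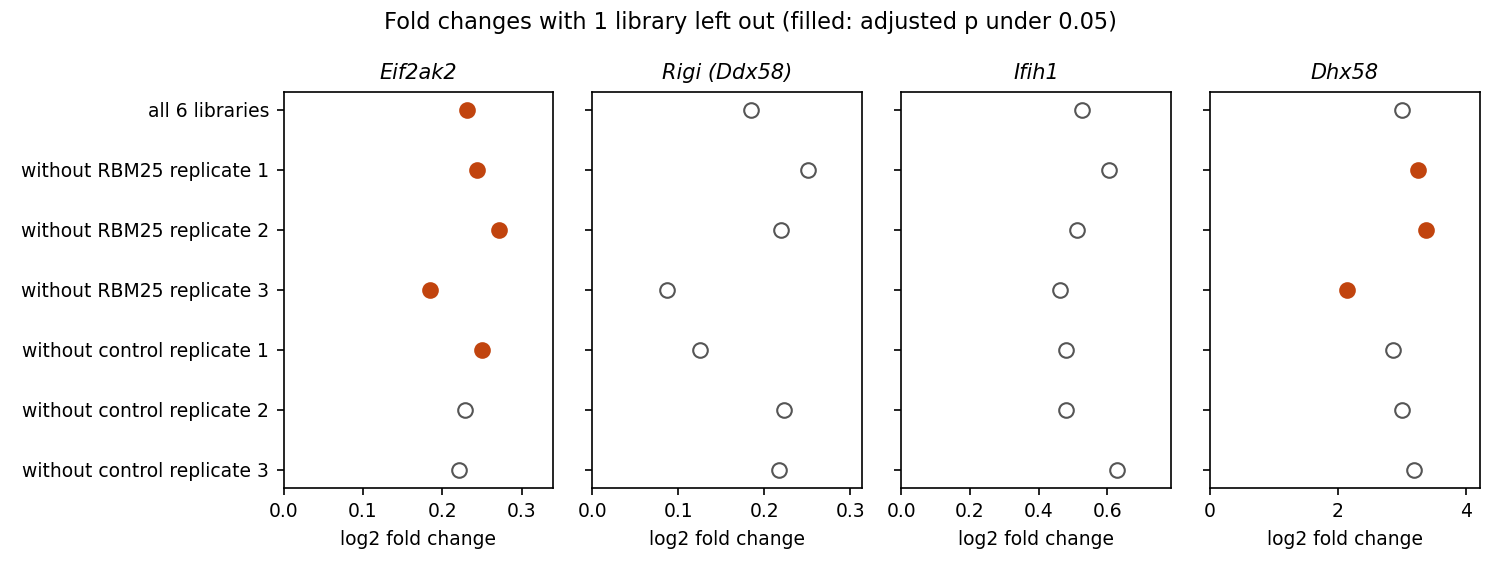
Log2 fold change of RBM25 over control libraries from edgeR for Eif2ak2, Rigi, Ifih1 and Dhx58 with all 6 libraries and with each library left out, each panel on its own axis from 0. Filled points have an adjusted p under 0.05: Eif2ak2 loses its call without control replicate 2 or 3, and Dhx58 gains one without any 1 of the RBM25 libraries. Dhx58 was tested only through its RBM25 reads.

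The genes around the sensors were followed in 8 lists of known partners, with 116 distinct genes tested. Of these, 1 was called higher and 1 lower, 17 (14.7%) had an unadjusted p under 0.05, against 11.2% of all tested genes, 58 had a positive log2 fold change, and the median was -0.00017. None of the 27 tested regulators of the RIG-I-like receptors and partners of MAVS was called by edgeR or DESeq2, and 4 had an unadjusted p under 0.05 (median log2 fold change -0.0027). The smallest p was that of Dhx36, a helicase that unwinds G-quadruplexes, at 30.4 ± 1.29 CPM in RBM25 libraries and 26.8 ± 1.30 CPM in control libraries (SD, n = 3 each; log2 fold change 0.18, edgeR adjusted p = 0.183). Trim25 and Rnf135 encode ubiquitin ligases that activate RIG-I in human cells and were picked from the list after their values were seen. Trim25 was at 5.80 ± 0.548 CPM in RBM25 libraries and 5.61 ± 0.417 CPM in control libraries (edgeR adjusted p = 0.921). Rnf135 was at 7.32 ± 0.438 CPM in RBM25 libraries and 8.77 ± 0.571 CPM in control libraries, which missed the threshold (edgeR adjusted p = 0.285).

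None of 22 tested genes of the cGAS-STING and DNA sensing list was called by edgeR or DESeq2, and 3 had an unadjusted p under 0.05 (median log2 fold change -0.016). Mre11, a double-strand break nuclease, had the smallest p, with 29.5 ± 1.24 CPM in RBM25 libraries and 26.8 ± 0.266 CPM in control libraries (log2 fold change 0.14, edgeR adjusted p = 0.302). The adaptor of cGAS, Sting1, named after its values were seen, was low at 2.31 ± 0.577 CPM in RBM25 libraries and 2.34 ± 0.525 CPM in control libraries (edgeR adjusted p = 0.99). In the endosomal Toll-like receptor list, none of 11 tested genes was called by edgeR or DESeq2 and none had an unadjusted p under 0.05 (median -0.027). Its smallest p belonged to the lysosomal protease Ctsl (log2 fold change 0.062, edgeR adjusted p = 0.456). Ticam1, the adaptor that TLR3 needs, named after its values were seen, was at 6.46 ± 0.158 FPKM in RBM25 libraries and 6.58 ± 0.276 FPKM in control libraries, although Tlr3 itself was listed at no more than 0.04 FPKM.

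The kinases and transcription factors below the sensors held no called gene among 15 tested by edgeR or DESeq2, with 3 at an unadjusted p under 0.05 (median log2 fold change 0.0089). Irf7, an interferon-inducible transcription factor of interferon genes, had the smallest p. It was at 13.8, 10.8 and 17.3 CPM in RBM25 replicates 1, 2 and 3, against 8.004, 9.57 and 8.47 CPM in control replicates 1, 2 and 3, so the groups did not overlap and replicate 3 was again highest. Irf7 differed by 0.68 ± 0.17 on the log2 scale (SE; adjusted p = 0.204 by edgeR), and it passed without RBM25 replicate 2 or without RBM25 replicate 3, 2 of the 6 fits with 1 library left out (0.50 to 0.84, edgeR adjusted p = 2.58e-04 to 0.484). It also passed with edgeR without robust estimation (adjusted p = 0.0208) and with no filter on low counts (adjusted p = 3.05e-10 by edgeR). Tbk1 and Irf3, the kinase and factor used by the sensors in common and named after their values were seen, had log2 fold changes of 0.0089 and -0.00087 (edgeR adjusted p = 0.98 and 0.998).

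Genes that act with PKR on translation showed 1 call, and it was downward. Of 18 tested, Eif2b2, a subunit of the eIF2 exchange factor that phosphorylated eIF2 inhibits, fell to 119 ± 1.07 CPM in RBM25 libraries, against 132 ± 4.20 CPM in control libraries (SD, n = 3 each; log2 fold change -0.15 ± 0.033 SE, edgeR adjusted p = 0.0399). DESeq2 did not call it, and among the 6 fits with 1 library left out edgeR called it in 1, without RBM25 replicate 3 (adjusted p = 0.00602; the others reached up to 0.402). It was also lost with edgeR without robust estimation (adjusted p = 0.0634) and in the limma-trend fits of FPKM (adjusted p = 0.349 to 0.512). The list's median log2 fold change was 0.0072. The other eIF2 kinases are named after their values were seen. The haem-regulated kinase Eif2ak1 was at 32.7 ± 0.170 FPKM in RBM25 libraries and 32.04 ± 0.123 FPKM in control libraries. The endoplasmic reticulum kinase Eif2ak3 was at 3.36 ± 0.132 FPKM in RBM25 libraries and 3.49 ± 0.361 FPKM in control libraries. The amino acid sensing kinase Eif2ak4 was at 4.01 ± 0.336 FPKM in RBM25 libraries and 3.95 ± 0.0954 FPKM in control libraries. None of these 3 was called (edgeR adjusted p = 0.806, 0.834 and 0.948), with 95% intervals of the log2 fold change from -0.040 to 0.094, -0.21 to 0.097 and -0.11 to 0.15, against 0.15 to 0.32 for Eif2ak2. The difference between these kinases was not tested.

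The list of genes that bind, edit or clear double-stranded RNA had 1 call among 20 tested, Son, which encodes a nuclear speckle protein that binds such RNA. It rose to 157 ± 2.70 CPM in RBM25 libraries, against 141 ± 5.60 CPM in control libraries (SD, n = 3 each; log2 fold change 0.15 ± 0.034 SE, adjusted p = 0.0341 by edgeR). This call was lost without control replicate 2, control replicate 3 or RBM25 replicate 2 (edgeR adjusted p up to 0.303), with edgeR without robust estimation (adjusted p = 0.0634) and in the limma-trend fits of FPKM (adjusted p = 0.385 to 0.526). None of the 7 tested genes of the ZBP1 cell death arm was called by edgeR or DESeq2, and 1 had an unadjusted p under 0.05. That gene was Cflar, an inhibitor of caspase-8, at 22.0 ± 1.47 CPM in RBM25 libraries and 19.7 ± 1.23 CPM in control libraries (log2 fold change 0.16, edgeR adjusted p = 0.345). Ripk3, the kinase that ZBP1 recruits, named after its values were seen, was well expressed at 36.7 ± 0.871 FPKM in RBM25 libraries and 37.1 ± 1.13 FPKM in control libraries.

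Interferon genes, some of which are outputs of these sensors, were nearly unread. Ifnb1 had 1 read in RBM25 libraries and 0 in control libraries. Ifna1 and the type II gene Ifng had 0 reads each in RBM25 libraries and 1 read each in control libraries. The exception was the row LOC108350996, which the RefSeq table of the rat assembly GRCr8 gives by gene ID as Ifne, interferon epsilon. It had 212, 168 and 178 reads in RBM25 replicates 1, 2 and 3, against 102, 149 and 149 reads in control replicates 1, 2 and 3. Scaled by library size the groups did not overlap, with 6.03 ± 0.630 CPM in RBM25 libraries and 4.67 ± 0.606 CPM in control libraries, and the log2 fold change of 0.36 ± 0.12 missed the threshold (SE; edgeR adjusted p = 0.23). It was not called in any of the 14 alternatives that could be fitted. On the FPKM scale the row was low, at 0.377 ± 0.0404 in RBM25 libraries and 0.290 ± 0.0361 in control libraries. Whether its reads come from Ifne itself was not tested.

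**Figure D5:**
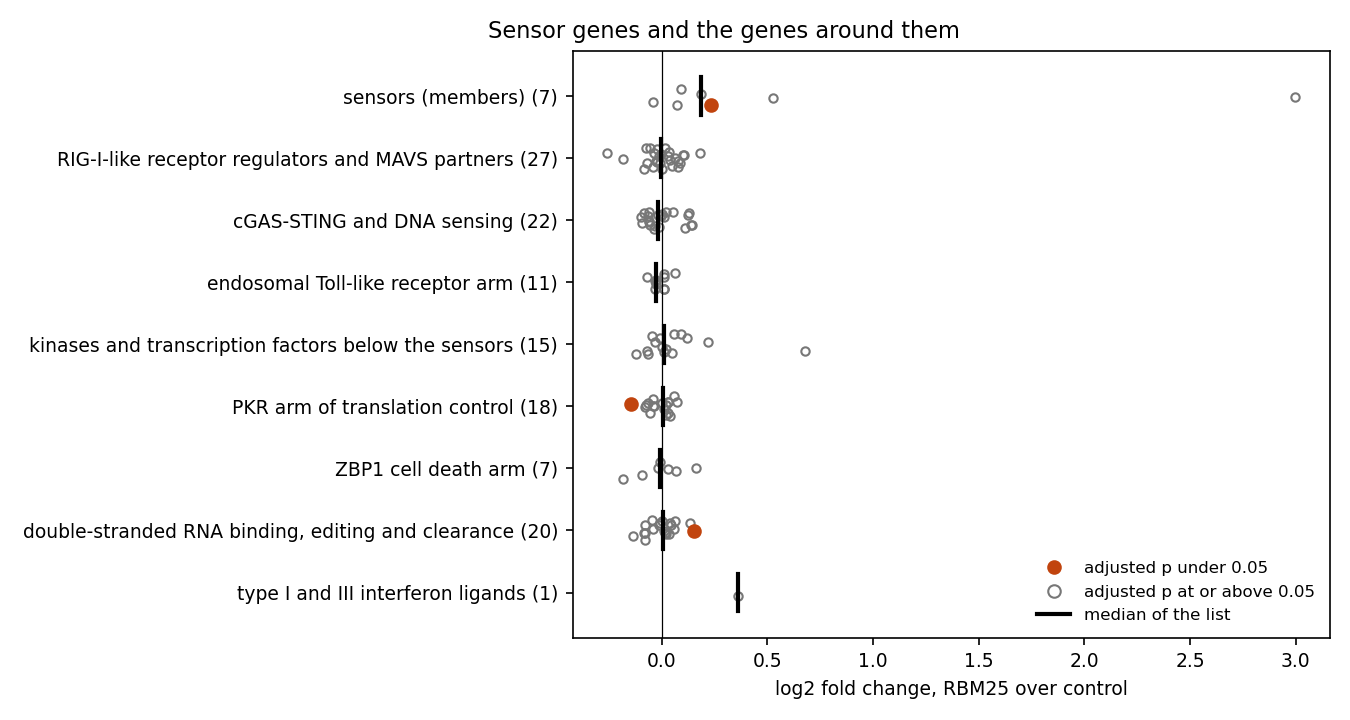
Log2 fold change of RBM25 over control libraries for each tested gene of the sensors and of 8 partner lists (number of genes in parentheses), with a bar at the median of each list. Filled points have an adjusted p under 0.05 and are Eif2ak2, Eif2b2 and Son, and the medians of the 7 lists with more than 1 tested gene lie between -0.027 and 0.0089.

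Over the 6 libraries, the gene whose centred log2 CPM lay nearest to that of Eif2ak2 among 10208 candidates was Klhl12, with a root mean square difference of 0.025. Nhs and Zfp281, at 0.036 and 0.037, were also among the 5 nearest. These genes were picked for likeness to Eif2ak2 in the same libraries, so their rise was set by the choice and is description only. Zfp281, a zinc finger factor, was at 30.2 ± 1.73 CPM in RBM25 libraries and 24.7 ± 0.981 CPM in control libraries (SD, n = 3 each; log2 fold change 0.29, edgeR adjusted p = 0.0194), a call that was lost without control replicate 2, without control replicate 3 and in the limma-trend fits of FPKM (adjusted p = 0.362 to 0.526). Klhl12 and Nhs missed the threshold (edgeR adjusted p = 0.331 and 0.207).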

How the data were processed

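Per the labels' protocols, poly(A) RNA of H9C2 cells was made into strand-marked libraries and sequenced as read pairs. The submitters' processing notes name HISAT2, DESeq2 and the build mRatBN7.2; the sources used here give no versions, counting program, annotation or strand setting, so Eif2ak2, Tlr3 and Cgas, which overlap other genes in the RefSeq table of GRCr8 (used for names only), are less certain. Rigi was not matched to an entry of that RefSeq table, so whether it overlaps other genes was not checked. The deposited counts are whole reads per gene, not normalized. The deposited FPKM values, rounded by the authors to 2 decimals, list 20395 genes.

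The main test was edgeR 4.0.16 (R 4.3.3). The filterByExpr filter, at a minimum count of 10 (0.334 CPM in at least 3 libraries), left 12882 genes, which were scaled by TMM and fitted by a robust quasi-likelihood model with group as its only term. A gene was called at a Benjamini-Hochberg adjusted p under 0.05 over all tested genes. The SE of a log2 fold change is its size over the square root of F. DESeq2 1.42.0, and limma 3.58.1 on log2(FPKM + 1), which understates changes of low genes, were alternatives. Ratios of reads carry exact conditional intervals for counting error only. Tested on simulated counts, the main edgeR fit and limma-trend made false calls at a rate above the nominal one, and DESeq2 stayed within it. Calls near the threshold are therefore less certain. The simulation gave limma-trend CPM values rather than FPKM, and none of its libraries was made to stand apart.

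Genes named are all sensor genes, Rbm25, up to 3 called genes of each list or its gene with the smallest p, and the 5 genes nearest to each called sensor gene (log2 CPM with a prior count of 2, mean of 1 or more); others are marked, and some genes under this rule are not reported here. Members and lists were chosen with earlier results of these data known. No label says that libraries come from separate cultures, so p-values measure the spread between libraries, which may be technical.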

Additional observations from a re-analysis of the deposited data

How the results depend on the processing

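The log2 fold changes of the 7 tested sensor genes kept their sign under all alternatives that gave a value. The number of sensor genes called was 1, and it was 2 with DESeq2, with no filter on low counts, with the replicate block and with edgeR without robust estimation (the last chosen after the data were seen), Dhx58 being the added gene. It was 0 under each of the 3 limma-trend fits on FPKM, where 1, 1 and 3 sensor genes had an unadjusted p under 0.05, and 0 to 2 with 1 library left out. In the edgeR and DESeq2 fits with a filter on low counts, Dhx58 was tested only through its RBM25 reads. Over all genes 52 were called, against 205 with no filter and 436 with the replicate block. With 1 library left out there were 5 (without control replicate 2) to 352 (without RBM25 replicate 3). The limma-trend fits called 0 genes with either pseudocount (1039 and 1036 at an unadjusted p under 0.05) and 5 with no filter. The cause of these differences was not tested. The replicate numbers were not found to pair the libraries: same-numbered libraries deviated together with r of 0.054, -0.067 and -0.0059 across 12882 genes. Under that block Irf7, not called otherwise with all libraries and the filter by robust edgeR, had an adjusted p of 9.07e-11 by edgeR. Genes with few reads, Dhx58, Tlr3 and Zbp1, are limited by depth.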
